A study of Mus musculus with 42 samples.

Results

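The 27 genes described here encode the enzymes that build cholesterol from acetyl-CoA, the transcription factor SREBP2 with the proteins that control it, and 4 proteins of sterol transport and uptake. Of these 4, Mylip is known as a target of the oxysterol receptor LXR and not of SREBP2. They were chosen by gene symbol, and all 27 were found among the 43629 genes of the count table through their Ensembl identifiers. Expression of 25 of them was high enough to test in kidney and of 26 in liver. The mice were UM-HET3 males, a stock of mixed genetic background, which ate a supplemented or a control diet from 3 months of age for 1 month, so that tissue was taken at 4 months. The diets held AS-703026 (pimasertib, a MEK inhibitor) at 30 ppm, enzastaurin (a protein kinase C inhibitor) at 75 ppm, GDC-0941 (a phosphoinositide 3-kinase inhibitor) at 50 ppm, AZD8055 at 20 ppm or KU0063794 at 10 ppm (both inhibitors of the mTOR kinase), or ascorbyl-palmitate, a lipophilic form of vitamin C, at 6.3 ppm. Kidney was sequenced for all 6 compounds with 4 libraries each and for 6 littermates on the control diet, 30 libraries in all. The 12 liver libraries come from 3 of these diets, 4 each from GDC-0941, AS-703026 and enzastaurin, and livers on the control diet are not analysed here, so the liver comparisons are between compounds. The labels call the libraries of a group biological replicates, and whether a liver and a kidney library came from 1 mouse is not given in the sources used here.

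Cells make cholesterol in a chain that starts with acetyl-CoA, passes through mevalonate and the isoprenoids to squalene, closes squalene into lanosterol and then trims and reduces lanosterol. When sterols in the endoplasmic reticulum are low, SCAP escorts SREBP2 to the Golgi, where it is cleaved and becomes an active transcription factor for the genes of this chain, while the INSIG proteins hold SCAP back when sterols are plentiful. The liver is a major site of this synthesis and also turns cholesterol into bile acids.

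Promoter sequences are shown for the 3 members that passed the test for any difference among the liver groups, Acat2, Hmgcs1 and Pmvk. Each line gives the 250 bases upstream of the RefSeq start on the strand of the gene (RefSeq, GRCm38.p6), and capitals mark the letters of a sterol regulatory element (TCACNCCAC) or of a CCAAT box (CCAAT, or ATTGG on the other strand). The windows are chr17:12960726-12960975 on the minus strand for Acat2, chr13:119690101-119690350 on the plus strand for Hmgcs1 and chr3:89454291-89454540 on the plus strand for Pmvk.
Acat2: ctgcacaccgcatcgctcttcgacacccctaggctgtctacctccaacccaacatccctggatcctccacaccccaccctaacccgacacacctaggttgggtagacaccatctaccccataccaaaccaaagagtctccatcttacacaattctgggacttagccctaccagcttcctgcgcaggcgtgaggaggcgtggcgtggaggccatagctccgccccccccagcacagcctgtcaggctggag
Hmgcs1: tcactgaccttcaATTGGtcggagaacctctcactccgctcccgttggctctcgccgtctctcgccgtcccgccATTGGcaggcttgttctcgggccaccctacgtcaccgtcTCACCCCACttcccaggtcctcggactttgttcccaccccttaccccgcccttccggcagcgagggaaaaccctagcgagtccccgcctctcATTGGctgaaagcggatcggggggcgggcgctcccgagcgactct
Pmvk: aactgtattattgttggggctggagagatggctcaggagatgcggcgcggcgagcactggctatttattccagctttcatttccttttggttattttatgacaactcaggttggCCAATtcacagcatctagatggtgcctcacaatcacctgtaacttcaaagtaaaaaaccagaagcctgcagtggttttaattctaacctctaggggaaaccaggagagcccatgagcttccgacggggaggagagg
The Hmgcs1 window holds the element as TCACCCCAC, from 137 to 129 bases upstream of the start, and 3 CCAAT boxes that begin 237, 176 and 45 bases upstream. The Pmvk window holds 1 CCAAT box from 136 to 132 bases upstream, and the Acat2 window holds neither motif. Of the 27 members, 23 had an entry in the promoter table. Searched on both strands, TCACNCCAC occurred in 1 of these 23 and in 1.05% of all 32851 promoters of the same length, and CCAAT in 20 of 23 and in 33.85% of all promoters. The GC box GGGCGG, also searched on both strands, occurred in 18 of 23 members and in 32.74% of all promoters. These are matches of letters and do not show that a factor binds there. Only exact matches within the 250 upstream bases were counted, so variant or more distant elements would be missed.

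Libraries held 863605 to 5691067 counts in kidney and 1084591 to 4361115 in liver. Levels are given as CPM, a gene's count relative to the TMM-scaled total of its library, except that summed marker levels are relative to the plain total. The tissue labels fitted the markers, with summed hepatocyte markers at 87800 CPM or more in every liver library and at 2470 or less in kidney, and summed proximal tubule markers at 11900 CPM or more in kidney and at 3.21 or less in liver. Kidney AZD8055 replicate 4 stood apart, with summed adipocyte markers at 31244 CPM against 382 or less in the other 29 kidney libraries. Liver enzastaurin replicate 2 stood apart in the same list, at 523 CPM against a median of 11.1 over the 12 liver libraries. Satellite-like gene models, 13 models related to 1 repeat, took 0.0350% to 29.0% of the counts in kidney. In liver they took 0.857% to 1.77% with AS-703026 and 0.124% to 0.645% with the other compounds. All libraries differed from each other by more than sampling noise. In bulk tissue, fewer cells of a type and less RNA per cell cannot be told apart.

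In liver, 5 enzyme genes of the early and middle pathway were higher with AS-703026 than with GDC-0941, and no member was lower. They were Pmvk, Hmgcs1 and Acat2 of the first steps and Lss and Fdft1 of the squalene steps. These 5 of 26 tested members passed an adjusted p of 0.05 in edgeR's quasi-likelihood test with Benjamini-Hochberg adjustment, against 2.05% of all 9490 genes called higher. The log2 difference was above 0 for 22 of the 26 members, with a median of 0.36 against a median of -0.00027 over all genes. An unadjusted edgeR p under 0.05 was reached by 12 members, and the share of all genes at that level is not given here. By step, 3 of 5 genes from acetyl-CoA to isopentenyl units were higher (median log2 difference 0.75), 0 of 3 isoprenoid genes (median 0.48), 2 of 3 genes from squalene to lanosterol (median 0.66), 0 of 8 genes from lanosterol to cholesterol (median 0.28), 0 of 4 genes of SREBP2 and its regulators and 0 of 3 transport genes. The unadjusted counts of the groups at 0 were 1, 3, 2 and 0.

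**Figure D1:**
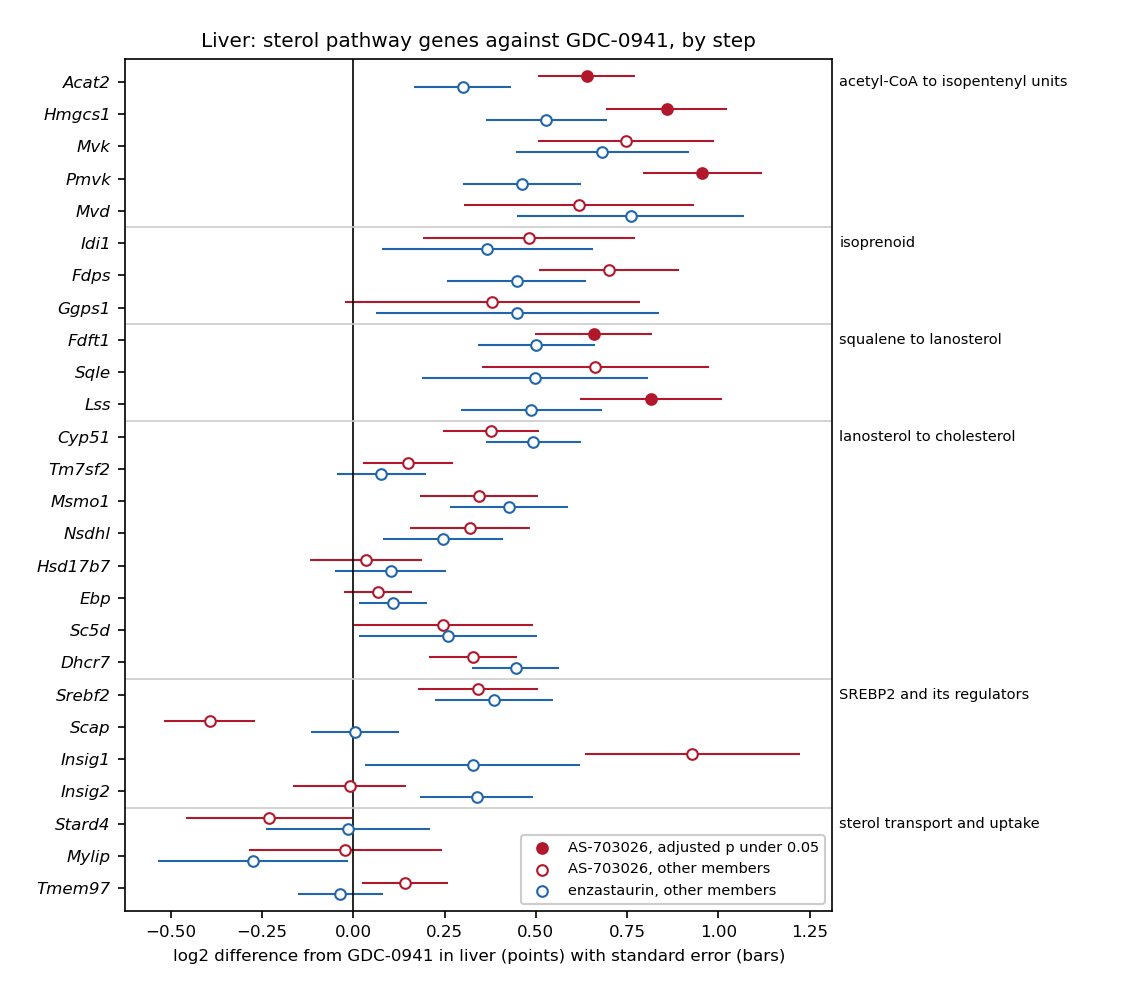
Log2 difference from GDC-0941 in liver for 26 members in pathway order, with the standard error as bars. Red points are AS-703026 and blue points enzastaurin, 4 libraries per group, and filled points passed an adjusted p of 0.05. The 5 filled points lie between 0.64 and 0.96 and all belong to AS-703026, and both compounds lie above 0 for all 8 genes from lanosterol to cholesterol.

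Pmvk encodes phosphomevalonate kinase, which adds a phosphate to mevalonate phosphate (ENSMUSG00000027952, GRCm38 chromosome 3, 89454541 to 89469013, plus strand). Its level was 189, 103, 166 and 141 CPM in AS-703026 replicates 1 to 4, 73.5, 84.5, 80.3 and 72 with GDC-0941 and 87.7, 125, 91.0 and 123 with enzastaurin. All 4 AS-703026 and all 4 enzastaurin libraries lay above the highest GDC-0941 library. AS-703026 exceeded GDC-0941 by a log2 difference of 0.96 ± 0.16 (SE, edgeR adjusted p = 0.00384), from 77.6 ± 5.85 to 150 ± 36.6 CPM (SD, n = 4 each). Enzastaurin lay between them at 107 ± 19.9 CPM, with a log2 difference from GDC-0941 of 0.46 ± 0.16 that did not pass (edgeR adjusted p = 0.524).

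Hmgcs1 encodes the cytosolic HMG-CoA synthase, the enzyme that joins acetoacetyl-CoA and acetyl-CoA (ENSMUSG00000093930, chromosome 13, 119690379 to 119708260, plus strand). Of the 23 members with a promoter window, only Hmgcs1 held an exact match to the sterol regulatory element searched. It stood at 416, 275, 377 and 308 CPM with AS-703026, at 152, 262, 169 and 176 with GDC-0941 and at 314, 239, 281 and 263 with enzastaurin. GDC-0941 replicate 2 was the highest of its group and still below every AS-703026 library. The log2 difference between AS-703026 and GDC-0941 was 0.86 ± 0.17 (edgeR adjusted p = 0.00914), from 190 ± 49.4 to 344 ± 64.3 CPM (SD, n = 4 each). Enzastaurin averaged 275 ± 31.6 CPM.

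Acat2 encodes the cytosolic thiolase that makes acetoacetyl-CoA (ENSMUSG00000023832, chromosome 17, 12942890 to 12960747, minus strand). Its level was 155, 199, 200 and 207 CPM with AS-703026, 103, 147, 136 and 102 with GDC-0941 and 134, 162, 147 and 159 with enzastaurin. Every AS-703026 library was above every GDC-0941 library, and enzastaurin overlapped both. The log2 difference between AS-703026 and GDC-0941 was 0.64 ± 0.13 (edgeR adjusted p = 0.0112), from 122 ± 23.1 to 190 ± 24.1 CPM. The value is uncertain because 39.28% of the 24-base words in the last 500 bases of Acat2 also occur in Acat3 and 18.58% in Tcp1, so counting may have split reads between them.

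The other genes of the first steps are Mvk, mevalonate kinase, and Mvd, mevalonate diphosphate decarboxylase. Mvk stood at 12.2, 5.44, 10.8 and 9.37 CPM with AS-703026, 4.39, 6.00, 6.08 and 6.91 with GDC-0941 and 8.66, 9.23, 9.51 and 10.2 with enzastaurin. Its log2 difference between AS-703026 and GDC-0941 was 0.75 ± 0.24 (edgeR adjusted p = 0.107), with AS-703026 replicate 2 inside the range of GDC-0941. Mvd ranged from 41.0 to 51.4 CPM with AS-703026, from 17.2 to 51.8 with GDC-0941 and from 40.1 to 75.8 with enzastaurin, so the groups overlapped.

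Of the isoprenoid genes, Idi1 encodes the isomerase of isopentenyl diphosphate, Fdps farnesyl diphosphate synthase and Ggps1 geranylgeranyl diphosphate synthase, which leads away from sterols. Fdps stood at 136, 76.1, 121 and 87.1 CPM with AS-703026, 53.1, 89.4, 53.7 and 63.7 with GDC-0941 and 92.5, 98.7, 75.7 and 88.5 with enzastaurin. GDC-0941 replicate 2 again reached into the range of the other groups, and the log2 difference between AS-703026 and GDC-0941 was 0.70 ± 0.19 (edgeR adjusted p = 0.0617). Idi1 ranged from 6.55 to 20.0 CPM and Ggps1 from 1.20 to 5.44 CPM over the 12 libraries, with overlapping groups. Fdps and Idi1 have processed pseudogenes that share 40.99% (Gm3571) and 40.64% (Gm13502) of the words in their last 500 bases, and counts of these genes are uncertain.

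Fdft1, squalene synthase, makes the first molecule committed to sterols (ENSMUSG00000021273, chromosome 14, 63145150 to 63179578, minus strand). It stood at 81.3, 48.0, 73.5 and 62.5 CPM with AS-703026, 34.3, 53.4, 44.8 and 36.7 with GDC-0941 and 65.5, 59.9, 63.7 and 52.7 with enzastaurin. The AS-703026 and GDC-0941 libraries overlapped only through AS-703026 replicate 2, and the log2 difference was 0.66 ± 0.16 (edgeR adjusted p = 0.0295). Fdft1 shares 37.44% of the words in its last 500 bases with the far more abundant Ctsb on the opposite strand, and the strand setting of the counting is not given in the sources used here.

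Lss, lanosterol synthase, closes the ring system (ENSMUSG00000033105, chromosome 10, 76531588 to 76557138, plus strand). Its levels were 60.8, 88.8, 52.7 and 57.6 CPM with AS-703026, 34.7, 51.0, 31.0 and 26.9 with GDC-0941 and 54.7, 54.4, 52.5 and 41.5 with enzastaurin. Every AS-703026 library exceeded every GDC-0941 library, by a log2 difference of 0.82 ± 0.19 (edgeR adjusted p = 0.0287). Sqle, squalene epoxidase, lies between these enzymes and stood at 95.3, 47.1, 76.0 and 64.9 CPM with AS-703026, 27.1, 66.2, 46.7 and 39.7 with GDC-0941 and 100, 51.3, 58.7 and 49.7 with enzastaurin. Its groups overlapped, with a log2 difference of 0.66 ± 0.31 between AS-703026 and GDC-0941 (edgeR adjusted p = 0.337).

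**Figure D2:**
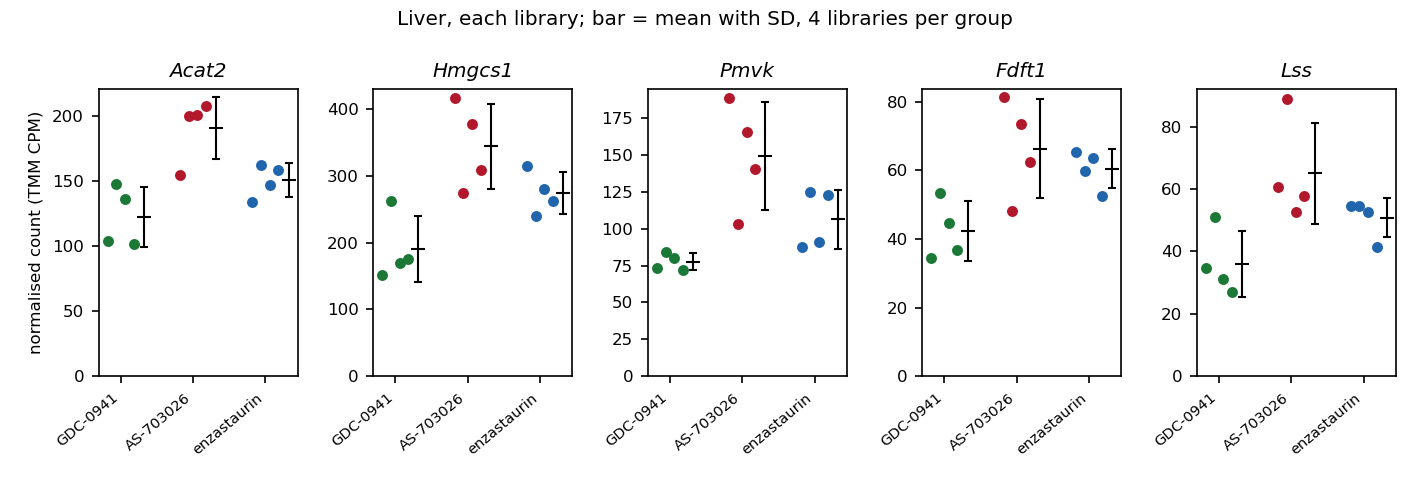
Normalised counts (TMM CPM, linear axes from 0) of the 5 members called between AS-703026 and GDC-0941 in each of the 12 liver libraries, with the group mean and SD. For Acat2, Hmgcs1, Pmvk and Lss all 4 AS-703026 points lie above the highest GDC-0941 point, and for Fdft1 3 of 4 do.

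The 8 enzymes that turn lanosterol into cholesterol showed smaller differences, and 0 passed in any comparison of 2 liver groups by edgeR. Cyp51, the lanosterol demethylase, stood at 296, 228, 323 and 281 CPM with AS-703026, 171, 262, 225 and 212 with GDC-0941 and 327, 289, 333 and 277 with enzastaurin. All 4 enzastaurin libraries lay above the GDC-0941 range, and 3 of 4 AS-703026 libraries did. Dhcr7, which reduces 7-dehydrocholesterol in the last part of the chain, stood at 54.7, 57.1, 58.7 and 62.5 CPM with AS-703026, 38.7, 55.1, 47.0 and 44.4 with GDC-0941 and 56.3, 65.1, 65.7 and 65.3 with enzastaurin, with the same overlap. The C4 demethylation enzymes Msmo1, Nsdhl and Hsd17b7 had log2 differences between AS-703026 and GDC-0941 of 0.34, 0.32 and 0.04. The values were 0.15 for Tm7sf2, a C14 sterol reductase, 0.07 for Ebp, a sterol isomerase, and 0.25 for Sc5d, a sterol desaturase.

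Among the regulators, Insig1, itself a known SREBP target that retains SCAP, stood at 422, 547, 302 and 483 CPM with AS-703026, 196, 337, 251 and 133 with GDC-0941 and 235, 316, 382 and 219 with enzastaurin. The log2 difference between AS-703026 and GDC-0941 was 0.93 ± 0.30 and did not pass (edgeR adjusted p = 0.142), with AS-703026 replicate 3 below GDC-0941 replicate 2. Scap, the escort protein gene, stood at 42.4, 58.0, 54.7 and 52.4 CPM with AS-703026, 70.3, 67.6, 57.6 and 76.0 with GDC-0941 and 70.9, 74.5, 63.7 and 62.9 with enzastaurin. Scap was the member with the lowest log2 difference between AS-703026 and GDC-0941, -0.39 ± 0.12 (edgeR adjusted p = 0.101). Srebf2, the SREBP2 gene, had a log2 difference of 0.34 (edgeR adjusted p = 0.323) and Insig2, the second INSIG gene, of -0.01. The transport genes had log2 differences of -0.23 for Stard4, a cytosolic sterol carrier, -0.02 for Mylip, the ubiquitin ligase IDOL that marks lipoprotein receptors for breakdown, and 0.14 for Tmem97, the sigma-2 receptor. Npc1l1, the cholesterol uptake protein of the gut, had 0 counts in all 12 liver libraries, where 3 counts would be 0.688 to 2.77 CPM, and at most 0.646 CPM in kidney.

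The libraries of AS-703026 and of GDC-0941 did not overlap for 4 of the 26 members in the higher direction (Acat2, Hmgcs1, Lss and Pmvk), against 5.09% of all genes. Calls of Pmvk, Hmgcs1 and Acat2 held without any 1 of the 12 liver libraries. Lss lost its call without AS-703026 replicate 1 or GDC-0941 replicate 1, 3 or 4 (edgeR adjusted p of 0.0697, 0.0732, 0.0855 and 0.0870), and Fdft1 lost it without AS-703026 replicate 1 or 3 or GDC-0941 replicate 1, 3 or 4 (0.121, 0.109, 0.0948, 0.0604 and 0.0999). The count of members rose to 8 without AS-703026 replicate 2 and fell to 3 without AS-703026 replicate 1 or GDC-0941 replicate 1, 3 or 4.

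The satellite-like share moved with this comparison, since each AS-703026 liver library had a higher share than each library of the other compounds. With the share as a covariate 0 of the 26 members passed by edgeR and 14 genes in all did, while the log2 differences of Pmvk, Hmgcs1, Acat2, Lss and Fdft1 were 0.84, 0.94, 0.49, 0.73 and 0.57 (edgeR adjusted p of 0.204, 0.169, 0.382, 0.414 and 0.433). The share and the compound cannot be told apart in these libraries. Markers of other cells were also measured. Of 7 immune markers 2 were higher, C1qa (log2 difference 0.82) and C1qb (0.79), with the summed list at 270 to 311 CPM with AS-703026 and 161 to 247 with GDC-0941, and of 10 hepatocyte genes 2 were higher, the fibrinogen chains Fga (1.61) and Fgb. The other 8 hepatocyte genes did not pass, 6 of the 10 had differences below 0, the lowest being Alb, albumin (-0.71, edgeR adjusted p = 0.104), and the median of the list was -0.0354. Their part in the result was not tested.

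Enzastaurin against GDC-0941 in liver gave no call at all by edgeR (0 of 26 members and 0% of all genes), with 739 genes at an unadjusted p under 0.05. DESeq2 called 19 genes and limma voom 0, and both called 0 members. Of the 26 members 23 had log2 differences above 0, with a median of 0.38, and 13 had an unadjusted p under 0.05, each of them with enzastaurin above GDC-0941. The smallest p belonged to Cyp51 (0.49 ± 0.13, edgeR adjusted p = 0.378), Dhcr7 (0.44 ± 0.12, adjusted p = 0.389) and Hmgcs1 (0.53 ± 0.17, adjusted p = 0.512). Enzastaurin libraries lay wholly above GDC-0941 for 6 members (Cyp51, Dhcr7, Ebp, Mvk, Pmvk and Srebf2), against 2.49% of all genes. This comparison shares the GDC-0941 libraries with the one above, so the results are not independent of each other. The 1 adipocyte marker tested in liver, Fabp4, had a log2 difference of 2.43 here (edgeR adjusted p = 0.57) and of -2.32 between AS-703026 and enzastaurin (adjusted p = 0.271). Without enzastaurin replicate 2, the liver library with the most adipocyte transcripts, 0 members passed in either comparison with enzastaurin, and the member medians were 0.384 against GDC-0941 and 0.0447 for AS-703026 against enzastaurin.

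AS-703026 and enzastaurin differed in 0 members by edgeR, against 2.95% of all genes, and DESeq2 and limma voom also called 0. An unadjusted edgeR p under 0.05 was reached by 4 members, with no share of all genes given beside it. The members with the smallest p were Scap (-0.40 ± 0.12, edgeR adjusted p = 0.104), Pmvk (0.49 ± 0.16, adjusted p = 0.119) and Acat2 (0.34 ± 0.13, adjusted p = 0.21). Scap was the 1 member whose AS-703026 libraries all lay below the enzastaurin libraries, against 4.05% of all genes. Pmvk passed without AS-703026 replicate 2 (log2 difference 0.62, edgeR adjusted p = 0.0161). The median over members was 0.07, with 14 of 26 above 0.

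The test for any difference among the 3 liver groups called Pmvk, Hmgcs1 and Acat2 (edgeR adjusted p of 0.0075, 0.0196 and 0.0265), against 3.36% of all genes. Pmvk held its call without any 1 library. Hmgcs1 lost it without AS-703026 replicate 1 or 3 or GDC-0941 replicate 1, 3 or 4, and Acat2 without AS-703026 replicate 3 or 4 or GDC-0941 replicate 1 or 4. The count of members was 1 without AS-703026 replicate 3 or GDC-0941 replicate 1 or 4, 6 without AS-703026 replicate 2 and 9 without GDC-0941 replicate 2.

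Summed up per library, the median member lay at -0.532, -0.216 and -0.313 log2 units from the liver mean in GDC-0941 replicates 1, 3 and 4, where 3, 4 and 6 of 26 members were above that mean. In GDC-0941 replicate 2 the median was 0.0221 and 14 members were above. The AS-703026 libraries had medians of 0.191, -0.0299, 0.134 and 0.0943, and the enzastaurin libraries of 0.188, 0.0564, 0.0937 and 0.0366. GDC-0941 replicates 1, 3 and 4 were the lowest of the 12 libraries, and replicate 2 lay among the others. As deviations from the group mean, the median Pearson r over 325 pairs of members in 12 liver libraries was 0.15 (65.2% of pairs above 0), against -0.000682 over all gene pairs. The highest values were 0.911 for Sqle and Hsd17b7 and 0.903 for Fdft1 and Cyp51. All pairs share the same libraries and depths, so this is a description.

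Few genes around the pathway passed in these livers. Of 8 fatty acid synthesis genes, 9 partners of SREBP processing, 8 targets of the oxysterol receptor LXR and 9 genes that use isoprenoids, 0 passed in any of the 3 comparisons by edgeR. The largest unadjusted count among these lists was 2, for the SREBP partners between AS-703026 and GDC-0941. Of 9 other SREBP-responsive genes, Acss2, acetyl-CoA synthetase, was higher with AS-703026 than with enzastaurin (log2 difference 0.57 ± 0.13, edgeR adjusted p = 0.0196). Of 7 genes of cholesterol esterification, Lcat, which esterifies cholesterol in plasma, was also higher there (0.44 ± 0.11, adjusted p = 0.0382). Of 9 bile acid genes, the enzymes Cyp8b1 and Cyp7b1 were lower with AS-703026 than with enzastaurin, by log2 differences of -1.16 ± 0.19 and -0.89 ± 0.20 (edgeR adjusted p of 0.00408 and 0.0280). Cyp8b1 was lower with AS-703026 than with GDC-0941 too, at 636 ± 187 against 1040 ± 145 CPM (SD, n = 4 each; log2 difference -0.71 ± 0.19, edgeR adjusted p = 0.0497), where the median of the 9 bile acid genes was -0.33 and 0 of 9 were above 0. Unadjusted, 6 of the 9 bile acid genes had an edgeR p under 0.05 between AS-703026 and enzastaurin. The count was also 6 between AS-703026 and GDC-0941, and it was 2 between enzastaurin and GDC-0941. Shares of all genes at that level are not set beside these counts, so the counts cannot be compared between the 3 comparisons.

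In kidney, members passed against control with AZD8055 alone, and the calls rested on 1 library. Pmvk, Acat2, Insig1 and Fdps were called higher, 4 of 25 tested members against 3.69% of all 11719 genes, with log2 changes of 2.66 ± 0.60, 0.77 ± 0.21, 1.69 ± 0.46 and 1.55 ± 0.43 (edgeR adjusted p of 0.0134, 0.0300, 0.0310 and 0.0313). Pmvk stood at 9.82, 15.3 and 15.9 CPM in AZD8055 replicates 1 to 3 and at 216 in replicate 4, against a lowest, median and highest of 5.16, 10.9 and 15.5 in the 6 controls. Replicates 1 to 3 lay within or just above the control range. Insig1 stood at 72.2, 85.7, 53.7 and 514 CPM, against 45.6, 49.9 and 89 in control, and Fdps at 6.41, 6.97, 9.16 and 26.7, against 1.47, 2.87 and 8.14. Acat2 stood at 270, 378, 416 and 776 CPM, against 182, 272 and 357, and here replicates 2 and 3 were above the control range as well.

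**Figure D3:**
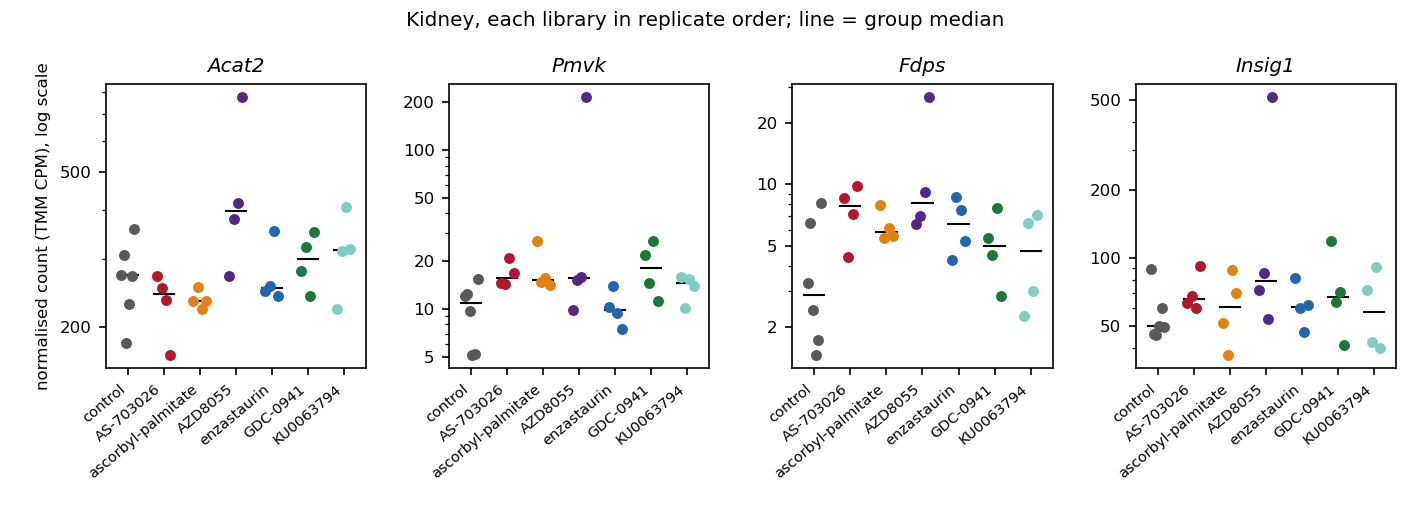
Normalised counts (TMM CPM, log axes) of the 4 members called with AZD8055 in each of the 30 kidney libraries, with a line at the group median and libraries in replicate order. AZD8055 replicate 4 is the highest kidney library for all 4 genes, at 776, 216, 26.7 and 514 CPM for Acat2, Pmvk, Fdps and Insig1.

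AZD8055 replicate 4 is also the library with adipocyte transcripts, and its summed proximal tubule markers were at 11881 CPM, the lowest of all kidney libraries. Of 6 tested adipocyte markers all 6 were called higher with AZD8055, and of 8 fatty acid synthesis genes 7 were, with a median log2 change of 4.48. Without replicate 4, 0 members passed and 32 genes were called in all (edgeR), and the log2 changes were 0.39 for Pmvk, 0.38 for Acat2, 0.32 for Insig1 and 0.81 for Fdps (adjusted p of 0.689, 0.377, 0.745 and 0.444). Other libraries decided calls too. Pmvk was the only member called without control 3, 4 or 5, Pmvk and Insig1 were called without control 1, and 6, 6 and 5 members were called without AZD8055 replicate 1, 2 or 3, respectively. Fdft1 (6.83, 2.79, 7.33 and 45.8 CPM) and Lss (21.4, 14.6, 26.9 and 80.7 CPM) had the same shape, with log2 changes of 1.71 and 0.74 that did not pass (edgeR adjusted p of 0.0533 and 0.134).

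AS-703026 gave 0 members past 0.05 in kidney by edgeR, against 0.734% of all genes called. The unadjusted count was 3, DESeq2 called 1 member (Mylip) and limma voom 0. The members with the smallest p were Mylip (1.04 ± 0.29, edgeR adjusted p = 0.0727), Tmem97 (0.97 ± 0.33, adjusted p = 0.145) and Mvk (1.22 ± 0.55, adjusted p = 0.287). Mylip stood at 31.6, 136, 45.4 and 46.4 CPM in replicates 1 to 4 against a control range of 20.4 to 44.8 with a median of 27.3. Replicate 2 was the highest of all kidney libraries for Mylip and had the highest satellite-like share, 29.0%. Without the kidney libraries at or above 5% of satellite-like counts, which leaves 1 AS-703026 library, the Mylip change was 0.14, and it passed without AS-703026 replicate 1 (1.27, edgeR adjusted p = 0.0308) or control 2 (1.21, adjusted p = 0.0344). Tmem97 was at 23.0, 23.1, 29.3 and 19.4 CPM against 5.21 to 17.8 in control (median 13.0), the 1 member whose groups did not overlap, against 1.72% of all genes higher without overlap. Collecting duct and inner medulla markers moved in this comparison, with 2 of 6 called higher (Aqp2 and Cryab), a median log2 change of 2.38 and a summed level of 374, 373, 744 and 5169 CPM in replicates 1 to 4 against 210 to 263 in control. Of 5 thick limb and distal tubule markers 1 was called higher, Cldn16 (1.76). Across all 30 kidney libraries, as deviations from the group mean, Tmem97 had r 0.354 and rho 0.494 with these collecting duct markers, which did not pass (adjusted permutation p of 0.229 and 0.127). Without the 2 libraries farthest from the median marker level the values were 0.607 and 0.6. The part of these markers in the Tmem97 change was not tested. Without replicate 4 the changes of Mylip and Tmem97 were 1.19 and 1.08 (edgeR adjusted p of 0.204 and 0.3).

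GDC-0941 gave 0 members past 0.05 in kidney (0.179% of all genes called, edgeR), with 1 member at an unadjusted p under 0.05 and 0 by DESeq2 and limma voom. Tmem97 stood at 23.6, 14.9, 36.4 and 12.6 CPM (log2 change 0.80 ± 0.34, edgeR adjusted p = 0.304), Mylip at 42.7, 53.5, 30.7 and 53.1 CPM (0.59 ± 0.29, adjusted p = 0.398) and Sqle at 49.1, 25.3, 65.8 and 23.1 CPM (0.56 ± 0.28, adjusted p = 0.404), and each overlapped control. Ebp was the 1 member without overlap, at 100, 98.3, 115 and 98.8 CPM against 62.6 to 95.2 in control, where 1.33% of all genes were higher without overlap. GDC-0941 replicates 1 and 3, the high libraries for Tmem97 and Sqle, also held more collecting duct markers (478 and 532 CPM against 188 and 252) and more thick limb markers (3266 and 3469 CPM against 1282 and 2014). Across all 30 kidney libraries, as deviations from the group mean, Sqle had r 0.618 and rho 0.56 with the collecting duct markers (adjusted permutation p of 0.0187 and 0.0817). With the thick limb markers it had r 0.33 and rho 0.301 (adjusted permutation p of 0.432 and 0.482). The part of these markers in the change with GDC-0941 was not tested.

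Ascorbyl-palmitate gave 0 members past 0.05 (0.0427% of all genes called, edgeR), with 2 unadjusted and 0 by DESeq2 and limma voom. Tmem97 stood at 36.8, 14.5, 28.7 and 13.1 CPM (0.92 ± 0.33, edgeR adjusted p = 0.219), Ebp at 123, 88.4, 136 and 94.6 CPM (0.39 ± 0.15, adjusted p = 0.27) and Cyp51 at 754, 204, 624.7 and 275 CPM (0.81 ± 0.40, adjusted p = 0.406). In all 3 genes replicates 1 and 3 were the high libraries. These 2 libraries also held more collecting duct and inner medulla markers, at 1113 and 881 CPM against 245 and 309 in replicates 2 and 4, and more thick limb and distal tubule markers, at 5554 and 5232 CPM against 2130 and 2438. The part of these markers in the change from control was not tested. Relations of Cyp51 and Ebp to such markers over all 30 kidney libraries are described below.

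Enzastaurin and KU0063794 also gave 0 members (0% and 0.0427% of all genes called by edgeR), with 0 at an unadjusted p under 0.05 and 0 by DESeq2 and limma voom for both. With enzastaurin the smallest p belonged to Srebf2 (39.2, 36.4, 38.9 and 37.5 CPM against 19.9 to 39.5 in control, log2 change 0.30 ± 0.15, edgeR adjusted p = 0.653), followed by Ebp (0.25, adjusted p = 0.723) and Scap (0.31, adjusted p = 0.732). With KU0063794 it belonged to Srebf2 (38.5, 38.3, 34.5 and 35.5 CPM, 0.24 ± 0.15, adjusted p = 0.627), Cyp51 (108, 136, 168 and 291 CPM, -0.58 ± 0.41, adjusted p = 0.69) and Stard4 (73.6, 85.0, 81.3 and 76.2 CPM, 0.26 ± 0.20, adjusted p = 0.707). AZD8055 and KU0063794 inhibit the same kinase, and with KU0063794 Pmvk stood at 15.9, 10.2, 15.4 and 13.9 CPM, within the range of AZD8055 replicates 1 to 3.

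Median log2 changes over the 25 members lay between 0.0984 (KU0063794) and 0.215 (AZD8055), against medians between -0.0239 and 0.0277 over all genes. Of the 25 members, 17 to 21 were above 0 in each of the 6 comparisons, which all share the same 6 control libraries. The test for any difference among the 7 kidney groups called 0 members by edgeR (10 unadjusted, 3 by DESeq2, 0 by limma voom), against 2.12% of all genes, with the smallest p for Pmvk, Acat2 and Insig1 (edgeR adjusted p of 0.0524, 0.0758 and 0.170). It called 3 members without AZD8055 replicate 1 and 1 without replicate 2 or 3. No share of all genes is given beside the unadjusted count.

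The remaining members passed in no kidney comparison. Over the 30 libraries Hmgcs1 ranged from 111 to 290 CPM, with the highest value in GDC-0941 replicate 1, Mvk from 0.737 to 10.2 and Mvd from 11.3 to 26.6. Idi1 reached 4.39 CPM at most and was too low to test in kidney. Ggps1 ranged from 6.51 to 23.1 CPM, Msmo1 from 49.1 to 129, Nsdhl from 44.1 to 122, Hsd17b7 from 31.3 to 71.8, Sc5d from 6.76 to 37.5 and Tm7sf2 from 8.03 to 23.8. Among the regulators and carriers, Scap ranged from 16.4 to 37.5 CPM, Insig2 from 39.1 to 76.7 and Stard4 from 28.3 to 96.6, the lowest being AZD8055 replicate 4. Dhcr7 stayed at 17.9 CPM or less in all kidney libraries but AZD8055 replicate 4, where it was 28.8.

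Cyp51 ranged from 156 to 514 CPM with a median of 242 among the 6 control kidneys, and over all kidney libraries its level went with markers of other nephron regions. Across 30 kidney libraries, as log2 deviations from the group mean, its Pearson r was 0.629 and Spearman rho 0.743 with summed collecting duct and inner medulla markers (permutation p of 0.00021 and 0.00011, adjusted 0.00625 and 0.0055), and 0.738 and 0.668 with thick limb and distal tubule markers (0.00025 and 0.00178, adjusted 0.00625 and 0.0272). Ebp went with the thick limb markers (r 0.615, rho 0.626, permutation p of 0.00259 and 0.00218, adjusted 0.0259 and 0.0272), and Acat2 against the collecting duct markers (r -0.492, rho -0.597, p of 0.00057 and 0.00054, adjusted 0.0095 and 0.0135). These were the 4 of 50 relations past 0.05 by both measures, with 100000 two-sided permutations within groups, and the relations were chosen after the data were seen. Without the 2 libraries farthest from the median marker level r was 0.739, 0.698, 0.565 and -0.425 in the order given. The 30 libraries were also taken as 19 under and 11 at or above 5% of satellite-like counts. A library alone of its group on its side has no deviation from a group mean, so 1 of the 19 and 2 of the 11 were left out. Among the 18 libraries then under 5% r for Cyp51 was 0.875 and 0.817, and among the 9 at or above 5% it was 0.179 and 0.32.

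**Figure D4:**
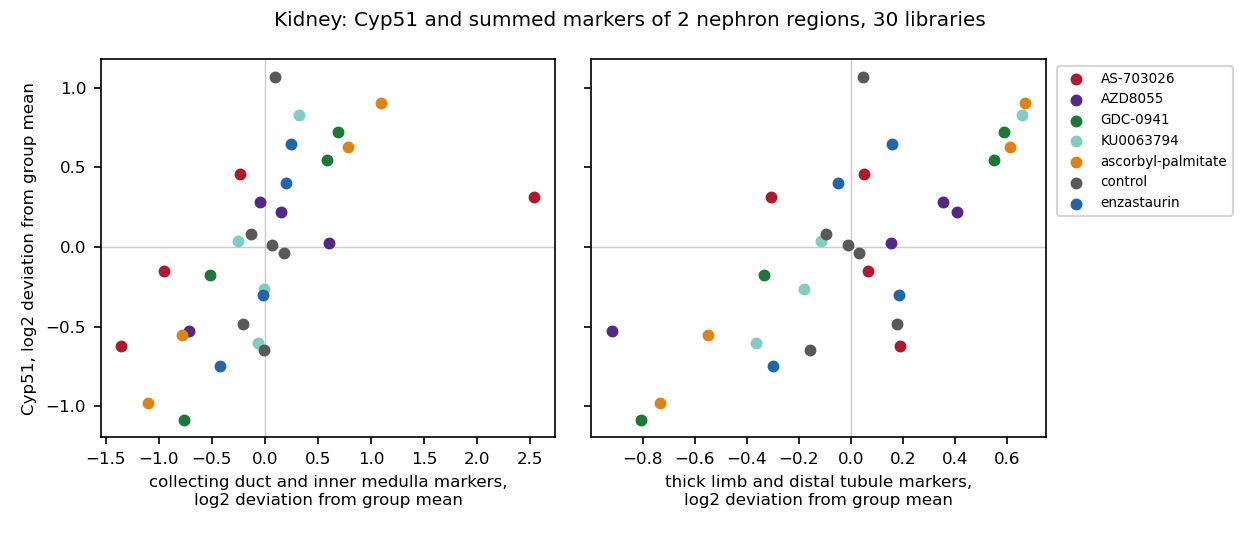
Log2 deviation of Cyp51 from its group mean in 30 kidney libraries against the log2 deviation of the summed collecting duct and inner medulla markers (left) and thick limb and distal tubule markers (right), coloured by group. Cyp51 is higher in libraries with more of either marker set, with Pearson r of 0.629 and 0.738, and the point farthest right on the left panel is an AS-703026 library.

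Between tissues, under the 3 compounds given in both, most of the pathway was higher in liver. Of 26 tested members 22 were higher and 2 lower in liver by edgeR, while 38.1% of all 12262 genes were higher and 39% lower. The median log2 difference was 2.06 for members and -0.0477 for all genes. By step, 4 of 5 first-step genes were higher, 2 of 3 isoprenoid genes, 3 of 3 squalene genes, 7 of 8 genes from lanosterol to cholesterol, 4 of 4 regulators and 2 of 3 transport genes. The isoprenoid gene Idi1, counted among the 22, was too low to test in kidney alone and entered this fit through its liver level. Its call is therefore no evidence about the pathway.

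**Figure D5:**
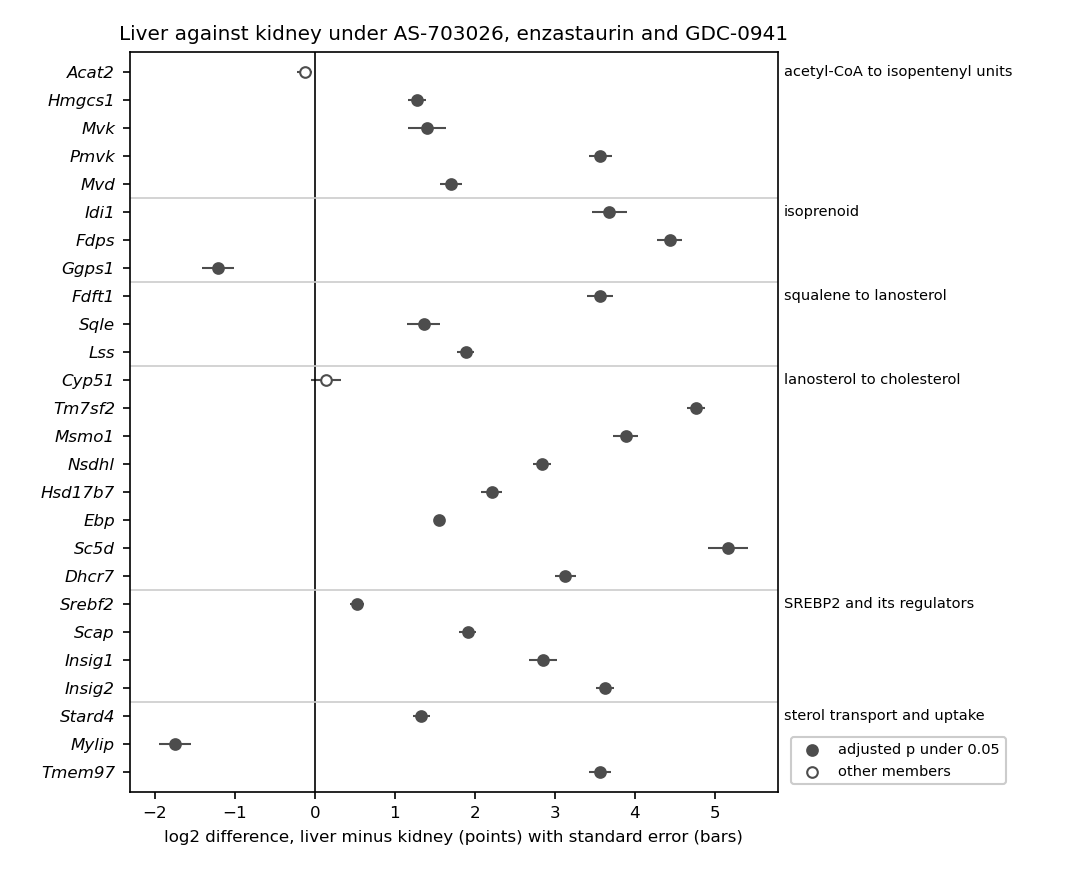
Log2 difference between liver and kidney for 26 members in pathway order under AS-703026, enzastaurin and GDC-0941 (12 liver and 12 kidney libraries), with the standard error as bars. Filled points passed an adjusted p of 0.05, Sc5d lies farthest right at 5.16, and Ggps1 and Mylip lie left of 0.

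The 3 largest differences were those of the late enzymes Sc5d and Tm7sf2, with log2 differences of 5.16 ± 0.25 and 4.76 ± 0.11 (adjusted p of 8.48e-14 and 1.3e-24 in edgeR), and of Fdps, at 4.44 ± 0.15. Msmo1 (3.88 ± 0.15), Idi1 (3.68 ± 0.22), Insig2 (3.63 ± 0.11), Pmvk (3.57 ± 0.14) and Fdft1 (3.57 ± 0.16) came next. By step, the median was 2.99 for the 8 genes from lanosterol to cholesterol. The median of the 3 isoprenoid genes, 3.68, is the value of Idi1, which reached at most 4.39 CPM in kidney. Idi1 was too low to test in kidney alone, so its difference and its call rest on its entry through liver. Srebf2 itself differed by 0.53 ± 0.09 (adjusted p = 8.38e-06), less than Insig2, Insig1 (2.85 ± 0.18) and Scap (1.91 ± 0.11). The 2 members lower in liver were Ggps1, on the branch to geranylgeranyl diphosphate (-1.21 ± 0.20, adjusted p = 4.54e-06), and Mylip (-1.75 ± 0.20, adjusted p = 1.68e-08). Of 12 genes that use isoprenoids, 8 were also lower in liver and 2 higher, whereas 8 of 9 bile acid genes and 7 of 8 fatty acid synthesis genes were higher. Hmgcs1 differed by 1.28 ± 0.11 and the others called higher lay between 1.33 (Stard4) and 3.56 (Tmem97).

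Acat2 and Cyp51 did not pass between tissues, at -0.13 ± 0.09 and 0.14 ± 0.19 (edgeR adjusted p of 0.228 and 0.517). RLE scaling moved the median of all genes to -0.162 and that of members to 1.95, and under it Acat2 was called lower in liver (-0.24, edgeR adjusted p = 0.0204) and Cyp51 was at 0.02. Without the kidney libraries at or above 5% of satellite-like counts Acat2 was called lower (-0.34, adjusted p = 0.0058) and Cyp51 higher (0.53, adjusted p = 0.0315). Kidney enzastaurin replicate 1 had the highest summed hepatocyte markers of the kidney libraries, 2467 CPM. Next were KU0063794 replicate 4 at 1645 CPM and GDC-0941 replicate 3, which is also in this comparison, at 1568 CPM. Without enzastaurin replicate 1 the number of members called was again 24.

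The last question was whether the difference between compounds was itself different in liver and kidney. The interaction test called 0 members by edgeR, against 0.139% of all genes (17 genes), with 4 members and 1197 genes at an unadjusted p under 0.05, 2 members by DESeq2 and 0 by limma voom. Acat2, Hmgcs1 and Pmvk had the smallest p (edgeR adjusted p of 0.154, 0.174 and 0.255). Between AS-703026 and GDC-0941 the liver difference exceeded the kidney difference by 0.99 ± 0.23 for Acat2, 1.17 ± 0.28 for Hmgcs1 and 0.98 ± 0.34 for Pmvk on the log2 scale (edgeR adjusted p of 0.0958, 0.0958 and 0.326). In kidney the same contrast was -0.37 for Acat2, -0.32 for Hmgcs1 and -0.03 for Pmvk, none of which passed. A different response of the pathway in the 2 tissues was therefore not shown.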

How the data were processed

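Kidney and liver RNA was profiled by CEL-seq, a 3'-end method for polyadenylated transcripts in which samples carry barcodes. The authors deposited raw counts per gene, with bcl2fastq 1.8.4, Trimmomatic 0.32, STAR 2.5.2b, featureCounts 1.5 and the mm10 genome named in the submitters' processing notes. Not given in the sources used here were the annotation release, the strand setting and the handling of molecular identifiers. Symbols and coordinates came from GENCODE M21 (GRCm38), which named 42548 of 43629 genes, and 0 columns were left unmatched.

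CPM values were computed here from these counts with TMM factors. After filterByExpr, 11719 kidney and 9490 liver genes were tested, and 12262 in the 24 libraries of compounds given in both tissues. Per tissue, edgeR 4.0.16 under R 4.3.3 was fitted once to every library (quasi-likelihood), and p-values were adjusted by Benjamini-Hochberg over all genes tested, with a threshold of 0.05. In kidney, liver and the joint fit the biological coefficient of variation came to 0.294, 0.191 and 0.234. SE is that of the log2 difference, derived from the test statistic. The alternatives were RLE scaling, no filter, DESeq2 1.42.0, limma 3.58.1 voom with sample weights, the replicate number as a block and the log2 satellite-like share as a covariate. Others were leaving out the 2 kidney libraries with the most fat or liver transcripts, the 2 groups alone, and each library left out in turn. A fit that drops the 11 kidney libraries in which satellite-like counts reached 5% was added after seeing the data, and so were the marker relations (on log2(CPM + 1)). Satellite-like models share 24-base words with Gm10800.

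Every member was to be described. In each comparison all members past 0.05 are named, and the smallest p up to 3 where fewer passed; of each related list at most 3 genes past 0.05. The members and lists were chosen with earlier results of these data known. Unadjusted counts of members or listed genes are descriptions. Where no count of all genes stands beside them, they are not read as results.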

Additional observations from a re-analysis of the deposited data

Results flagged for a closer look

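Within each group of 4 to 6 libraries, each tested member was checked for 1 library far from the rest, its gap to the nearest library being a large part of the group's range. Chance gives this in about 5% of such checks, and it was found in 24 of 253, or 9.49%. Values are normalised counts in CPM.

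AZD8055 replicate 4 stood far above the other AZD8055 kidneys for Pmvk (216.479), Fdps (26.7385), Fdft1 (45.764) and Insig1 (513.688), and it is the library with adipocyte transcripts. Mylip stood far above its group in AS-703026 kidney replicate 2 (136.277), the library with the highest satellite-like share, where Mvd stood far below (14.2871).

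Among the other kidneys, high values were seen for Acat2 in enzastaurin replicate 3 (351.687), Hmgcs1 in enzastaurin replicate 1 (210.423) and GDC-0941 replicate 1 (289.873), Pmvk in ascorbyl-palmitate replicate 1 (26.7974), Tm7sf2 in KU0063794 replicate 1 (23.777), Msmo1 in enzastaurin replicate 2 (106.825) and Ebp in GDC-0941 replicate 3 (114.952). High values among controls were Cyp51 in control 3 (513.676), Insig1 in control 1 (88.9599) and Stard4 in control 6 (93.045). Low values were Tm7sf2 in GDC-0941 replicate 1 (9.08694) and Insig2 in ascorbyl-palmitate replicate 4 (41.8175). The Tm7sf2 value rests on 10 counts and lies close to the nearest library of its group (9.52437), so it is a small difference within a narrow range.

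In liver, Mvd was high in enzastaurin replicate 1 (75.7707) and Srebf2 in enzastaurin replicate 3 (37.6218). Low values were Acat2 in AS-703026 replicate 1 (154.771), Lss in enzastaurin replicate 4 (41.5319), Dhcr7 in enzastaurin replicate 1 (56.2868) and Ebp in GDC-0941 replicate 3 (154.197).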

How the results depend on the processing

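Leaving aside single libraries left out, 471 recomputed values of named members stayed on the same side of 0.05, 30 no longer passed and 19 newly passed. None of the values that have a direction changed sign. The tests for any difference and for the interaction have no direction, and their values could not be checked for sign. Counts of members past 0.05 moved by over 1.5 times in 16 cases and stayed within that in 89, and the cause was not tested. For AS-703026 against GDC-0941 in liver (5) the count was 0 with a covariate for the satellite-like share and 3 with the 2 groups alone, and for any difference in liver (3) it was 8 with no filter, 7 by DESeq2 and 0 with the covariate. For AS-703026 against enzastaurin in liver (0) it was 1 with no filter, and for enzastaurin against GDC-0941 (0) it was 3 with no filter. For AZD8055 (4) it was 0 by limma voom, 0 with the replicate block and 0 with the 2 groups alone. It was also 0 without the 2 libraries with the most fat or liver transcripts. For AS-703026 in kidney (0) it was 1 by DESeq2, for any difference in kidney (0) it was 3 by DESeq2 and 3 without libraries of high satellite-like share, and for the interaction (0) it was 3 with no filter and 2 by DESeq2. Leaving out 1 library gave 3 to 8 members for AS-703026 against GDC-0941, 0 to 1 for AS-703026 against enzastaurin, 0 to 0 for enzastaurin against GDC-0941, 1 to 9 for any difference in liver, 0 to 6 for AZD8055, 0 to 1 for AS-703026 in kidney, 0 to 0 for the other 4 kidney compounds, 0 to 3 for any difference in kidney, 24 to 24 between tissues and 0 to 0 for the interaction.

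Over all genes, the count for AZD8055 (631) was 53 with the replicate block and 235 by limma voom, and that for AS-703026 against GDC-0941 (318) was 621 with no filter and 14 with the covariate. Replicate numbers showed no pairing that held across all groups. Libraries with the same number had correlations of -0.526 to 0.511 in kidney (25 of 84 pairs above 0.1) and -0.177 to 0.149 in liver (1 of 12). Between GDC-0941 and KU0063794 kidneys they were 0.317, 0.216, -0.219 and 0.198 for replicates 1 to 4. For replicate 1 the values were above 0 in every pair among AZD8055, enzastaurin, GDC-0941 and KU0063794 kidneys, from 0.0401 to 0.317. Between these groups and control, AS-703026 or ascorbyl-palmitate kidneys the replicate 1 values were all below 0, from -0.375 to -0.00741. Whether libraries of the same number were processed together was not tested. With the replicate block 4 members passed between AS-703026 and GDC-0941 in liver, without Fdft1 (edgeR adjusted p = 0.0512), and 23 between tissues, without Srebf2 (edgeR adjusted p = 0.0563). Members at a few counts, such as Idi1 and Npc1l1 in kidney, are limited by depth: 3 counts are 0.527 to 3.47 CPM there.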

Other observations

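As deviations from the group mean over 30 kidney libraries, the median Pearson r over 300 pairs of members was 0.0619, with 58.7% of pairs above 0, against 49.6% of all gene pairs. This is a description, since all pairs share the libraries and their depths.

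Kidney dissection can carry adrenal tissue, which makes steroids from cholesterol. Of 10 adrenal cortex markers 1 was high enough to test, Fdx1, the ferredoxin of mitochondrial steroid enzymes, at 115 to 239 CPM in kidney and 132 to 210 in liver. It was called higher with AZD8055 (log2 change 0.47, edgeR adjusted p = 0.0471), and its changes with GDC-0941, KU0063794 and ascorbyl-palmitate, 0.53, 0.43 and 0.32, did not pass (adjusted p of 0.103, 0.288 and 0.343). The other 9 markers together (TMM-scaled CPM) came to 1.1 to 10.9 CPM in the kidney libraries. Of these, Cyp21a1, the 21-hydroxylase, and Cyp11b2, aldosterone synthase, had 0 counts in all 30 kidney libraries, and Cyp11a1, which starts steroid synthesis, in 22 of 30. Akr1b7 had 0 counts in 3 of 30 and Star in 5, with highest levels of 6.2 and 5.3 CPM. Hsd3b1 had 0 counts in 15 of 30, Mc2r in 18, Cyp11b1 in 24 and Nr5a1 in 26. The highest level among the 9 was 8.23 CPM, for Mc2r. Whether adrenal RNA was present was not tested.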
